A study of Mus musculus with 6 samples.

Results

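Regions of open chromatin were compared between the 2 ATAC-seq peak lists titled mito, read here as mitosis, and the 2 titled LM, read as late mitosis. Peaks of the 4 lists that overlapped by 1 bp or more were merged into 41893 regions on chromosomes 1 to 19. The members were the 2846 regions that both lists of 1 group held and neither list of the other held. Of all 41893 regions, 2273 (5.43%) were mito-side members, with a peak in both mito lists but in no LM list, and 573 (1.37%) were LM-side members, the reverse. The same names are used below for genes.

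In ATAC-seq the transposase Tn5 cuts accessible DNA and joins sequencing adapters to it. Both groups were CGR8 mouse embryonic stem cells, a line the series' design text calls Cdt1-MD, grown untreated in a medium of neurobasal and DMEM/F-12 with N-2, B-27, leukemia inhibitory factor, CHIR99021 (which blocks GSK3) and PD184352 (which blocks MEK). The labels do not spell out mito or LM, the names of the peaks in the LM lists carry Telo instead, and how cells of each stage were obtained is given only as sorting or collection after trypsin. The titles and the protocol give different cell numbers, and nothing says that the replicates were separate cultures, so any p here reflects variation between these samples alone, which can be technical. The 2 early G1 lists of the same series, titled eG1-1, share line and medium and served as a readout that the choice of members did not use.

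In mitosis chromosomes condense, transcription largely stops, and many transcription factors leave the DNA, while accessibility is known to persist at many promoters. In embryonic stem cells the pluripotency factors and the promoters of cell cycle genes are the usual subjects of such comparisons, since the cells divide fast and must resume their programme after each division. A promoter is the stretch of DNA at a gene's start where the transcription machinery assembles. CCAAT boxes bind NF-Y, GC boxes bind Sp and Klf factors, and E-boxes bind basic helix-loop-helix factors.

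The promoters printed here are those of genes held in 1 group only, because they let a reader see which kind of sequence stood behind a member. Each runs 5′ to 3′ from 250 bases before to 50 bases after the start and comes from RefSeq (GRCm38.p6). Capitals mark matches, on either strand, of 13 motifs: the CCAAT box, the GC box GGGCGG, the Ets motif CCGGAAG, the CRE with the letters TGACGTCA, the related GTGACGT, which can overlap it, the E-box CACGTG, the CHR element TTTGAA, the TATA box TATAAA, the octamer ATGCAAAT, the AP-1 motif TGACTCA, the Esrrb motif TCAAGGTCA, and the Nrf1 and Zfp143 motifs. A match describes letters in the window and is no binding site. The first set, of mito-side genes, holds the promoters of Polr3c (chr3:96727390-96727689, minus strand), 1700066M21Rik (chr1:57377370-57377669, plus strand), Racgap1 (chr15:99651607-99651906, minus strand), Lin28a (chr4:134018767-134019066, minus strand), Nodal (chr10:61417722-61418021, plus strand) and Rpl26 (chr11:68901316-68901615, plus strand).
Polr3c: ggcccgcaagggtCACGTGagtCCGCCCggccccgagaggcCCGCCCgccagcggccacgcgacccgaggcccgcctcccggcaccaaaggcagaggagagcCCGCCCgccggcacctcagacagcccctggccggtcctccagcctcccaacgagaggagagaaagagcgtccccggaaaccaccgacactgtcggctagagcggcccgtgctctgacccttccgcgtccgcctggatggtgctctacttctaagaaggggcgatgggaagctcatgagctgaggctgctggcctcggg
1700066M21Rik: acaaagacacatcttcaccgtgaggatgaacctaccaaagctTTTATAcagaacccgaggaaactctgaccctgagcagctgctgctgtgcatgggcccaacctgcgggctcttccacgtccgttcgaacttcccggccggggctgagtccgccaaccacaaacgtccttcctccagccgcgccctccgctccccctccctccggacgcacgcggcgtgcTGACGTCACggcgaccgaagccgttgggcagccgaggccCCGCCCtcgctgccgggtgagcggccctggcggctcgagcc
Racgap1: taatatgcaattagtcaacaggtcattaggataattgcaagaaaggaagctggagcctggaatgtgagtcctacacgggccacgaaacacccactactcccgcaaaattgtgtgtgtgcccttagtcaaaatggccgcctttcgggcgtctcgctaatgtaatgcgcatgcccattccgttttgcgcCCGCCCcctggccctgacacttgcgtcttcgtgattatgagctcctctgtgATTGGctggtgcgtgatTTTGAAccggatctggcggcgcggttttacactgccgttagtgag
Lin28a: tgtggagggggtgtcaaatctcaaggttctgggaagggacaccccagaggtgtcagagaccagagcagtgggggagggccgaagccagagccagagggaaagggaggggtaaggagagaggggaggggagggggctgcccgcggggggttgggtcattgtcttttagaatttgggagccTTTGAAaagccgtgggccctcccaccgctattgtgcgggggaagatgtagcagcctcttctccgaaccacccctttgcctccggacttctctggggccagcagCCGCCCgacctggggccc
Nodal: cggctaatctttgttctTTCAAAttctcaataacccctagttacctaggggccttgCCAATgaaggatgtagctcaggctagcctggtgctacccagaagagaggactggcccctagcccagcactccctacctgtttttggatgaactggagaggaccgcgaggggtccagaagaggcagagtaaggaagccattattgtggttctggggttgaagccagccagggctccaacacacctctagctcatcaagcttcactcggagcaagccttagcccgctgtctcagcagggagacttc
Rpl26: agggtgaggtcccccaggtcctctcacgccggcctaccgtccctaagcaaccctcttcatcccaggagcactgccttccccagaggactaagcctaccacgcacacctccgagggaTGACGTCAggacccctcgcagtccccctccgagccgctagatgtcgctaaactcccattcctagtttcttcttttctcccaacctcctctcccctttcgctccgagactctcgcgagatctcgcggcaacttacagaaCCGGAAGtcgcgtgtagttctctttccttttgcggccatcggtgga

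The second set, of LM-side genes, holds the promoters of Chaf1a (chr17:56040166-56040465, plus strand), Lin37 (chr7:30559597-30559896, minus strand), Otulinl (chr15:27681493-27681792, minus strand) and Scpep1 (chr11:88955393-88955692, minus strand). Racgap1, Lin28a, Nodal and Rpl26 were chosen from gene lists after their values were seen.
Chaf1a: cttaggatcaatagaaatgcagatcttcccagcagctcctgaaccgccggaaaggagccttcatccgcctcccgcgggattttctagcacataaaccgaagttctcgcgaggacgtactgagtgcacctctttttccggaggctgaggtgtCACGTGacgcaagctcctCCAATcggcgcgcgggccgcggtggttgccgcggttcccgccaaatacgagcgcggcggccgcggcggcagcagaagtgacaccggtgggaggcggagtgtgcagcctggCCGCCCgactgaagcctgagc
Lin37: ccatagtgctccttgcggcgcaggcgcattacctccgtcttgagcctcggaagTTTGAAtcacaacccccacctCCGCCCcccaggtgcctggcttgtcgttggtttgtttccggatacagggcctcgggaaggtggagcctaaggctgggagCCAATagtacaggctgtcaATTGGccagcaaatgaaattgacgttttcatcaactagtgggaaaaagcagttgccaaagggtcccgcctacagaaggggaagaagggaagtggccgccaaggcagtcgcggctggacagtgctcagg
Otulinl: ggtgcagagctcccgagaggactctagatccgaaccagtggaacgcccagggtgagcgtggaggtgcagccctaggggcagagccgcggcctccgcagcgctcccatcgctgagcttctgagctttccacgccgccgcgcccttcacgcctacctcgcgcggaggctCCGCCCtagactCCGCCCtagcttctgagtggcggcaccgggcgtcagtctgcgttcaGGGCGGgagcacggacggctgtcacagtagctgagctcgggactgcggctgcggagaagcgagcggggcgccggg
Scpep1: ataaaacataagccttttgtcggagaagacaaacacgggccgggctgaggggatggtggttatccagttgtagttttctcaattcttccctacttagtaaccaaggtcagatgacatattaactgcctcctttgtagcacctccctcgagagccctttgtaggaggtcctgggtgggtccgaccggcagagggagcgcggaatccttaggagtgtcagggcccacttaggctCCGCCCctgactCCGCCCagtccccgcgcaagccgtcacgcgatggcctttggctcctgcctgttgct

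No motif stood in all 6 mito-side promoters. GC boxes stood in those of Polr3c (3 matches), 1700066M21Rik, Racgap1 and Lin28a (1 each), a CHR in those of Racgap1, Lin28a and Nodal, and neither in that of Rpl26, which held 1 Ets and 1 CRE match. All 4 LM promoters held a GC box, with 3 matches at Otulinl and 2 at Scpep1, a motif found in 68.5% of LM-side and 56.0% of mito-side promoters. Chaf1a and Lin37 also held CCAAT, with 1 and 2 matches, as did Racgap1 and Nodal on the mito side, with 1 each. Lin37 held 1 CHR match too, a motif found in 11.7% of mito-side, 9.59% of LM-side and 17.6% of all promoters.

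One of the 4 lists stood apart. LM replicate 2 had the fewest peaks on chromosomes 1 to 19, 20289 against 24101 and 29779 in mito and 23377 in LM replicate 1. Its peaks were also the narrowest, with a median of 335 bp against 456, 504 and 460 bp, and it covered 7.87 Mb against 12.7, 17.3 and 12.3 Mb. Replicate number was also the sequencing run, since the peak names place both replicate 1 lists in 1 run and both replicate 2 lists in another. The lists hold no reads, so sequencing depth is unknown, and where a list shows no peak the DNA may still be open. Results are therefore also given at equal list length, with the strongest 20639 peaks of each list by the authors' score, and within each replicate number.

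At equal list length the surplus in mito shrank. Of 34043 regions, 1135 (3.33%) were mito-side and 829 (2.44%) LM-side. The 945 regions that were mito-side under both settings were 41.6% of the deposited count and 83.3% of the equal-length count. For the LM side 441 regions recurred, 77.0% and 53.2%.

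The difference between the groups was mostly a difference within the second run. Between the replicate 1 lists, 7442 regions had a peak in mito alone and 6978 in LM alone. Between the replicate 2 lists the counts were 14291 and 4786. At equal length they were 5836 and 5976 for replicate 1 and 7014 and 6826 for replicate 2. Lists cut to the same number of peaks must nearly balance in the 2 directions, so this closeness follows from the cut and is no finding. With LM replicate 2 left out, 3749 regions had a peak in both mito lists and not in LM replicate 1, and 4083 had one in LM replicate 1 and in no mito list; for genes these counts were 721 and 476. That comparison asks for 2 lists on the mito side and 1 on the LM side, so its counts are not held to the same standard.

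**Figure D1:**
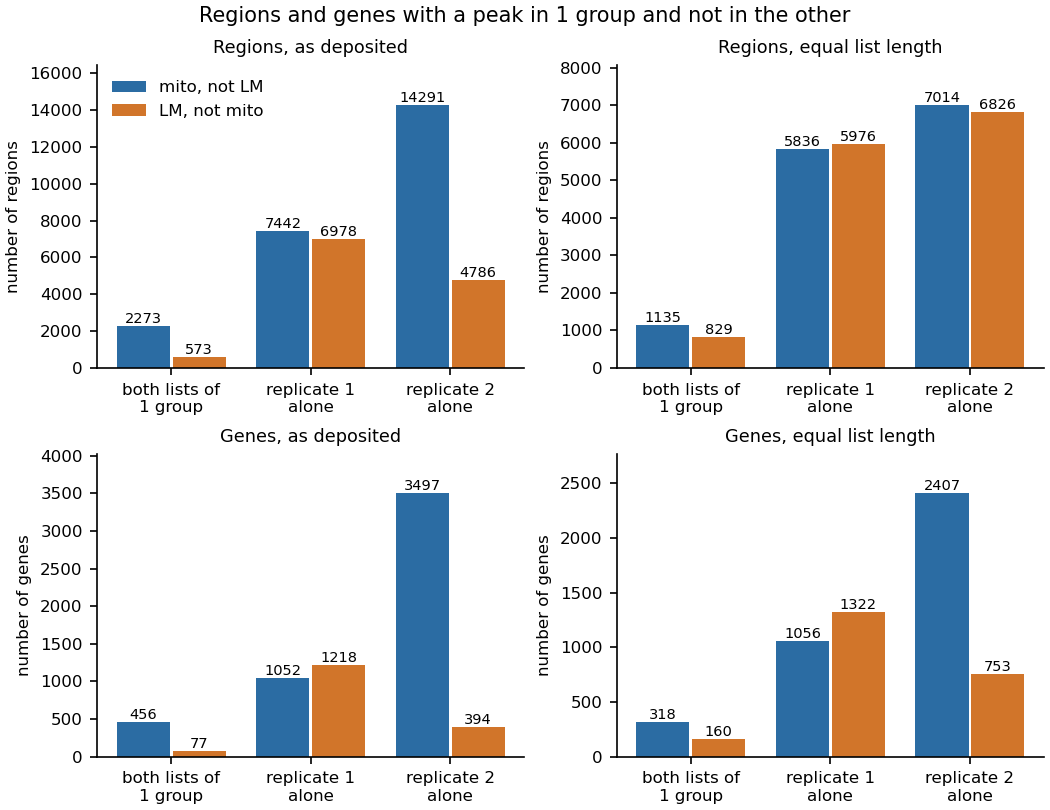
Bars give the number of regions (top) and protein-coding genes (bottom) with a peak in mito and not in LM (blue) or the reverse (orange), for both lists of a group together and for each replicate number alone, as deposited (left) and at equal list length (right). The blue surplus of regions in replicate 2, 14291 against 4786, is nearly gone at equal length, 7014 against 6826, which the equal number of peaks forces. Genes in replicate 1 lie the other way, 1052 against 1218.

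Protein-coding genes also parted the groups mostly within the second run, and did so at equal list length too. A gene was held by a list where a peak overlapped 1 kb either side of either annotated end. Narrower peaks can reach fewer of these windows, and LM replicate 2 had the narrowest peaks. What width adds to the gene counts was not tested. Mito replicates 1 and 2 held 9948 and 10749 of 20665 genes, and LM replicates 1 and 2 held 10114 and 7646. The groups overlapped, because LM replicate 1 lay between the mito lists. Means were 10348 ± 566 in mito and 8880 ± 1745 in LM (SD, n = 2 each), a difference of -1468 genes with p = 0.667 in an exact two-sided permutation test, whose smallest possible p is 0.333. Within replicate number the difference, LM minus mito, was 166 genes for replicate 1 and -3103 for replicate 2.

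Of the 20665 genes, 456 (2.21%) were mito-side and 77 (0.373%) LM-side. At equal list length the counts were 318 (1.54%) and 160 (0.774%). Under both settings 242 genes were held on the mito side, 53.1% of the deposited and 76.1% of the equal-length genes, and 63 on the LM side, 81.8% and 39.4%. Between the replicate 1 lists, 1052 genes had a peak in mito alone and 1218 in LM alone. Between the replicate 2 lists these were 3497 and 394, and at equal length still 2407 and 753. The surplus of genes on the mito side was thus found in 1 of the 2 runs.

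The members lay away from gene ends more often than regions that all 4 lists held. A region was placed at a gene boundary when its centre was no more than 1 kb from an annotated end of a protein-coding gene. This held for 510 of the 2273 mito members, 22.4% (Wilson 95% interval 20.8 to 24.2, counting error only), and for 81 of the 573 LM members, 14.1% (11.5 to 17.2). Among the 11017 regions held by all 4 lists it was 49.0% (48.0 to 49.9), and among all regions 28.8%. Within genes lay 34.3% of the mito members and 44.3% of the LM members, and 38.5% and 37.2% lay between genes. The order of the 2 groups turned between runs: regions of mito alone were at a boundary in 19.2% and those of LM alone in 22.1% for replicate 1, and in 26.5% and 11.4% for replicate 2.

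Per list, the gene-boundary share of peaks did not part the groups. It was 38.2% and 34.1% for the mito lists, 39.3% and 33.7% for the LM lists, and the LM values lay outside the mito values on both sides. Means were 36.1% ± 2.92 and 36.5% ± 3.98 (SD, n = 2 each), a difference of 0.400 percentage points with p = 1.00 by exact two-sided permutation. That difference turned to -2.94 points at equal list length.

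Most members were weak peaks. Scores are values the authors gave each peak, used to rank and describe peaks and, in places, with 1 threshold for all lists. Scores of different lists are not on one scale, so scores and shares past a threshold are not directly comparable between groups. Mito members had median scores of 39 and 46 in mito replicates 1 and 2, and LM members 35 and 35 in LM replicates 1 and 2. Regions held by all 4 lists had medians of 84 and 107 in mito and 82 and 65 in LM. Both scores reached 50 in 356 mito members (15.7%) and 53 LM members (9.25%), and both reached 100 in 4 and 2. A peak of the other group lay within 500 bp of 225 mito members (9.90%) and 35 LM members (6.11%). Whether the lower scores of the members bear on their distance from genes was not tested.

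The strongest mito-side genes had various functions. Gtpbp2, a GTPase of ribosome rescue, had a peak on chromosome 17 from 46160002 to 46161041 with scores of 314 and 246 in mito replicates 1 and 2. Rbfox2, a splicing regulator, had 198 and 185. Its peak, on chromosome 15 from 77306687 to 77307440, only just reached the 1 kb window at the gene's end. The peaks of Gtpbp2, Tsga10, Ermap, Ackr3, Mtfp1 and Srebf1 also overlapped only an edge of this window, with their centres outside it. Their place among the members thus depends on where the window stops. Tsga10, a gene of sperm formation, had 170 and 180, and Ermap, an erythroid membrane protein, 159 and 222. By the choice of members, neither LM list had a peak within 1 kb of an end of these genes. Only 4 mito-side regions had both scores at 100 or more, fewer than the genes in this paragraph with such scores. Some of these genes therefore lay at merged regions that were not themselves mito-side, where an LM peak can lie outside the window. None of the 4 strongest mito-side regions away from gene ends lay at a gene of this paragraph. Absence at a gene end is not absence from the locus. Ackr3, an atypical receptor that scavenges chemokine, had 135 and 126. Mtfp1, a protein of mitochondrial fission, had 124 and 119, and Srebf1, a transcription factor of lipid synthesis, 115 and 113. Elovl7, a fatty acid elongase, had 98 and 94, and 1700066M21Rik had 121 and 89. Polr3c, a subunit of RNA polymerase III, shared 1 peak of 128 and 97 with its neighbour Rnf115, a ubiquitin ligase. This peak, on chromosome 3 from 96727285 to 96727601, covers part of the Polr3c promoter printed above, and no early G1 list held a peak at these genes.

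The strongest LM-side genes had various functions too. Otulinl, an inactive relative of the deubiquitinase OTULIN, had scores of 95 and 111 in LM replicates 1 and 2, on chromosome 15 from 27681542 to 27681904. Chaf1a, the large subunit of the CAF-1 complex that deposits histones on new DNA, had 84 and 123 on chromosome 17 from 56040094 to 56040357. Lin37, a subunit of the MuvB complex that represses and activates cell cycle genes, had 75 and 82 on chromosome 7 from 30559634 to 30559913. Neither mito list held a peak at these 3 genes. Scpep1, a serine carboxypeptidase, had 74 and 91. Katnal2, a katanin-like microtubule severing protein, had 66 and 57, and Myrf, a transcription factor of myelination, 77 and 56. Xxylt1, a xylosyltransferase that modifies Notch, had 51 and 92. The remaining named genes, Gm4981 (56 and 70), the neighbours Sbk2 and Sbk3 (51 and 56) and the zinc finger gene Zscan30 (51 and 57), had a lower score between 51 and 56.

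**Figure D2:**
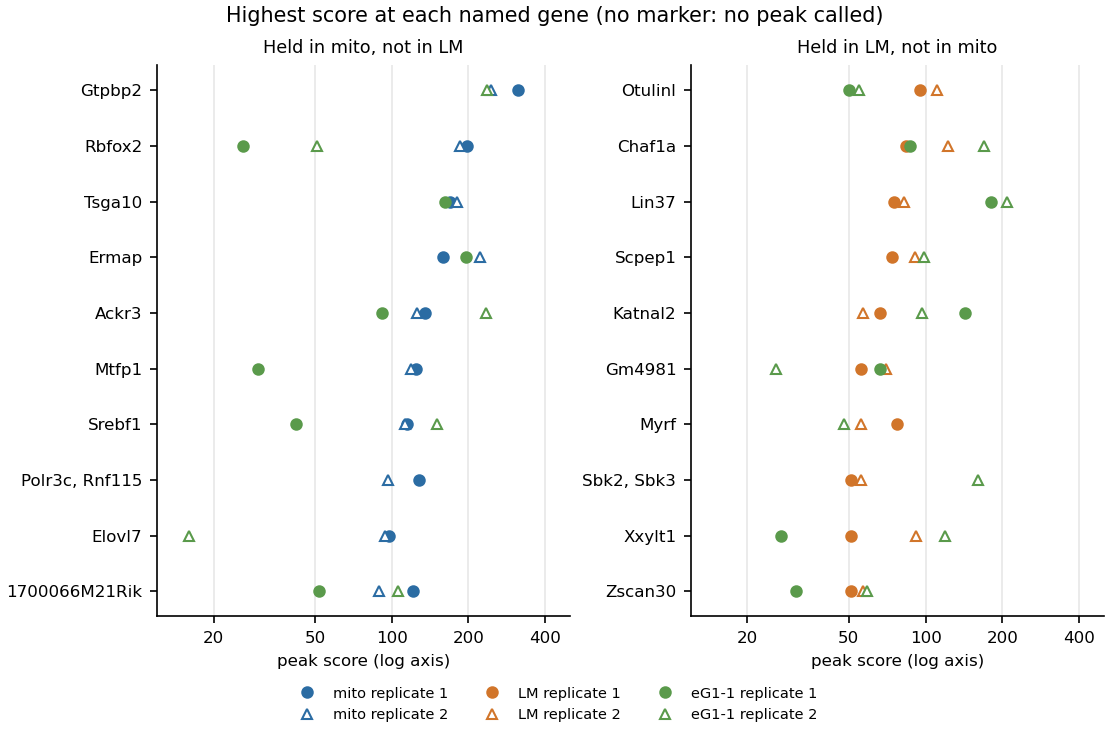
Points give the highest score (log axis) of peaks that overlap 1 kb either side of an end of each named gene. Colours mark mito (blue), LM (orange) and eG1-1 (green), with replicate 1 as circles and replicate 2 as open triangles. A missing marker means that no peak overlapped that window, and a peak may still have been called outside it. Mito genes reach 314 and LM genes 123 in their own lists, and eG1-1 markers stand beside 9 of 10 names on the left and all 10 on the right.

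Of the 22 gene lists compared, pluripotency genes had the largest shortfall of LM replicate 1 against mito replicate 1. Mito replicates 1 and 2 held 84.4% and 78.1% of the 32 genes, and LM replicates 1 and 2 held 59.4% and 43.8%, so both LM lists lay below both mito lists. Over all genes the shares were 48.1%, 52.0%, 48.9% and 37.0%. Within replicate number the difference for pluripotency genes was -25.0 percentage points in replicate 1 and -34.4 in replicate 2, against 0.803 and -15.0 over all genes. At equal list length the pluripotency shares were 71.9% and 71.9% in mito and 50.0% and 43.8% in LM, which still did not overlap. The list was written with earlier results of these data known, so its direction is a description and carries no test.

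Of the 32 pluripotency genes, 5 (15.6%) were mito-side and 0 LM-side, beside 2.21% and 0.373% of all genes. Lin28a, an RNA-binding protein that blocks let-7 maturation, had scores of 60 and 67 in mito, and Mycn, a Myc family transcription factor, 50 and 65. Fgf4, the ligand that drives ERK signalling in these cells, had 73 and 39. Sall4, a zinc finger transcription factor, had 34 and 61 and Tdgf1, the Nodal co-receptor Cripto, 28 and 82. At equal length 4 genes were mito-side, among them Lin28a, Mycn and Sall4. A further 12 genes had a peak in all 4 lists. Among these, Klf2 scored 202, 154, 136 and 124 in mito replicates 1 and 2 and LM replicates 1 and 2, and Zfp42, the marker Rex1, 127, 149, 168 and 178. Pou5f1, which encodes OCT4, had 48, 75 and 49 and no peak in LM replicate 2. Sox2 had a peak of 50 in mito replicate 1 and of 24 in LM replicate 2, Nanog only 28 in mito replicate 1, and Esrrb none near its ends.

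Genes of signalling in stem cells gave 2 further mito-side members of 34 (5.88%, beside 2.21% of all genes), Nodal and Bmp4, both ligands of the TGF-beta family, and 0 LM-side members. Nodal had 63 and 67 in mito, and Bmp4 38 and 35. Of the immediate early and stress genes, 3 of 30 (10.0%) were mito-side. The neighbours Hspd1 and Hspe1, the mitochondrial chaperonin and its co-chaperonin, shared peaks of 87 and 55, and Fosb, an AP-1 subunit, had 57 and 50. The list for the other cell types a culture may hold, with fibroblast markers, had peaks at 10.0% to 30.0% of 20 genes, and the groups overlapped. Olfactory receptors, which act in sensory neurons of the nose, were held at 0.636% of 1100 genes or less.

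Cell cycle genes had peaks in most lists. Of 40 G2 and M phase genes, 32 (80.0%) were held by all 4 lists, beside 31.7% of all genes, and the shares per list were 95% and 97.5% in mito and 97.5% and 82.5% in LM. Of 45 G1 and S phase genes, 30 (66.7%) were held by all 4 lists, with 77.8% and 84.4% in mito and 80.0% and 71.1% in LM. Ccnb1, cyclin B1, scored 158, 170, 137 and 98 in mito replicates 1 and 2 and LM replicates 1 and 2, and Gins2, a subunit of the replicative helicase, 487, 543, 529 and 351. The difference within replicate 2 was -15.0 and -13.3 percentage points for the G2 and M and the G1 and S genes, close to the -15.0 over all genes. Each list gave 1 member per direction, and their mito-side shares of 2.50% and 2.22% lay at that of all genes, 2.21%. The LM-side shares were also 2.50% and 2.22%, beside 0.373% of all genes. Each rests on 1 gene, too few to be read as higher. Racgap1, a centralspindlin subunit needed for cytokinesis, was mito-side, with scores of 102 and 84, and Lin37 LM-side. Ccnd2, cyclin D2, was mito-side, with 42 and 42, and Chaf1a LM-side. Racgap1, Lin37 and Chaf1a were held in the same direction at equal list length, and Ccnd2 was not.

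Ribosomal protein genes parted the groups in replicate 2 and not in replicate 1. Their shares were 78.8% and 88.8% in mito replicates 1 and 2 and 78.8% and 45.0% in LM replicates 1 and 2, out of 80 genes. The difference was 0 in replicate 1 and -43.8 percentage points in replicate 2. The 5 mito-side genes (6.25%, beside 2.21% of all genes) were Rpl26 with scores of 69 and 59, Rps27 with 58 and 84, Rpl9 with 55 and 50, Rpl12 with 46 and 46, and Rpl35 with 44 and 59. Of the 75 mitochondrial ribosomal proteins 3 (4.00%) were mito-side, among them Mrps5 (61 and 51), and of 53 translation initiation genes 3 (5.66%), among them Eif3l (57 and 75). Respiratory chain genes gave 2 of 89 on the mito side, Uqcrfs1 (69 and 73), the Rieske protein of complex III, and Cox6b1 (52 and 93), and 1 on the LM side, Cox7a1 (63 and 42), both Cox genes encoding subunits of complex IV. Replication-dependent histones gave H4c4 (38 and 79) and H3c10 (66 and 27) of 57, a family of near-identical copies at which placement of reads is uncertain.

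Across the 22 gene lists, 14 had a mito-side member and 4 an LM-side member as deposited, and 14 and 9 at equal list length. Splicing, nuclear pore and two-cell-like genes had 0 members in either direction under both settings, but lists of 13 to 31 genes are too small to show a departure from the 2.21% and 0.373% over all genes. Proteasome, kinesin and chromatin architecture genes had 0 as deposited and 1 each at equal length, LM-side for the proteasome and mito-side for the others. Of 360 Zfp zinc finger genes 11 (3.06%) were mito-side and 3 (0.833%) LM-side. Of 362 solute carriers 11 (3.04%) were mito-side and 0 LM-side, and at equal length 11 and 3. Zfp521 had 98 and 82 in mito, and Slc7a8, an amino acid transporter, 73 and 72. LM replicate 2 lay below mito replicate 2 in 21 of the 22 lists, while LM replicate 1 lay below mito replicate 1 in 9 and over it in 8. In 7 lists both LM lists lay below both mito lists, and in 0 the reverse. The reverse was unlikely in advance, since LM replicate 2 held only 37.0% of all genes. The 7 include olfactory receptors, at 0.273% in both LM lists against 0.364% and 0.636% in mito replicates 1 and 2.

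**Figure D3:**
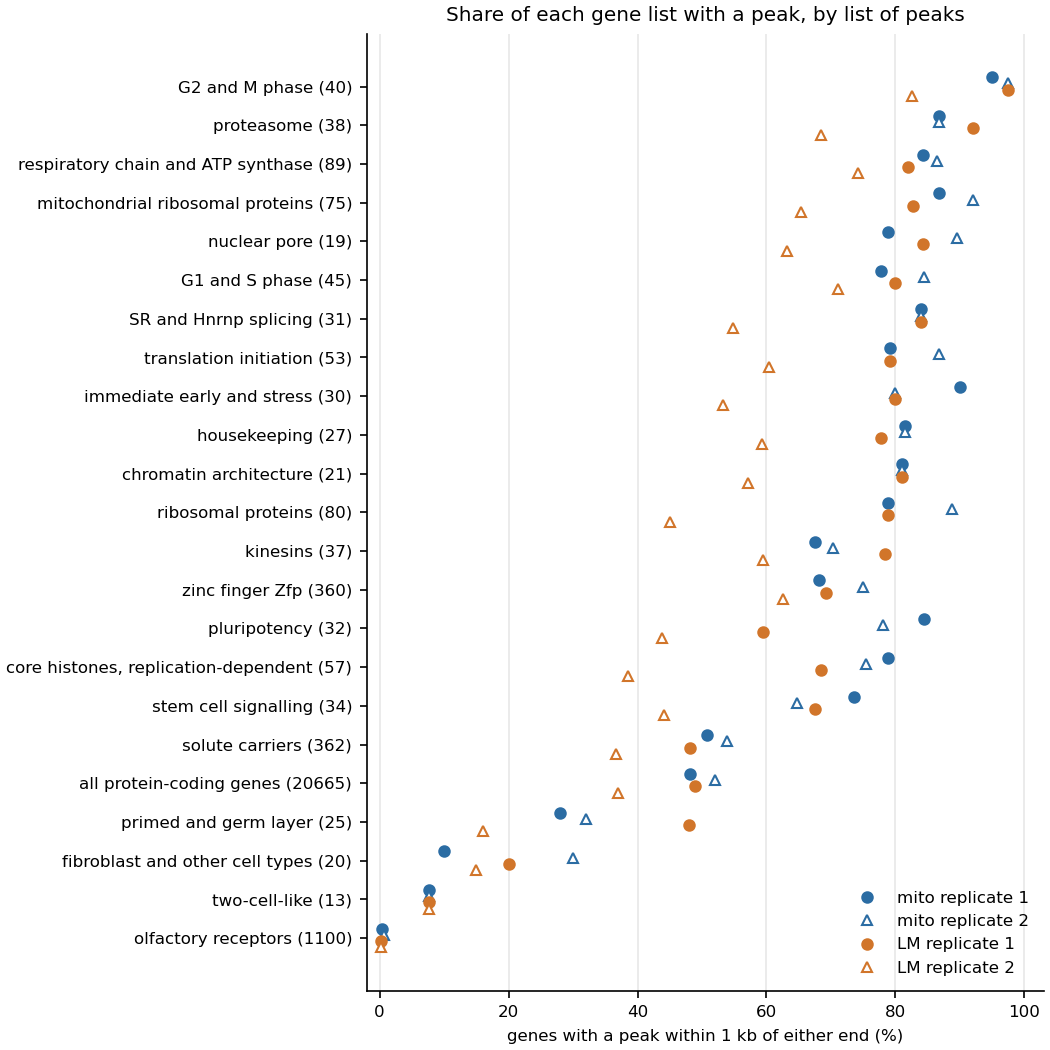
Each row is a gene list with its number of genes, and markers give the share of its genes (%) with a peak within 1 kb of either end in mito (blue) and LM (orange), replicate 1 as circles and replicate 2 as open triangles, offset vertically for legibility. The open orange triangle of LM replicate 2 lies farthest left in most rows, and the filled orange circle lies farthest below the mito markers at the pluripotency genes, 59.4% against 84.4% and 78.1%.

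The strongest members away from gene ends lay within or between genes. On the mito side, a region in Myadm, a myeloid-associated membrane protein, on chromosome 7 from 3292818 to 3293208 had scores of 95 and 102 in mito replicates 1 and 2. A region in Gap43, a growth cone protein of neurons, on chromosome 16 from 42276391 to 42276938 had 92 and 101, and a region in Ky on chromosome 9 from 102544763 to 102545227 had 122 and 111. The highest scores, 201 and 413, were at a region between genes on chromosome 6 from 47748300 to 47748565. On the LM side, a region in Senp7, a SUMO protease, on chromosome 16 from 56116240 to 56116767 had 94 and 113 in LM replicates 1 and 2. The other 3 lay between genes, at chr5:15043582-15044004 (95 and 92), chr11:23124561-23124865 (95 and 129) and chr13:66311958-66312451 (105 and 212). Of these 8 regions, 7 had peaks in both early G1 lists, and that in Gap43 had a peak, with a score of 26, in eG1-1 replicate 1 alone.

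Early G1 peaks were less frequent at mito members than at LM members. The share with a peak in both eG1-1 lists lay near that of all regions for LM members and below it for mito members. The share with a peak in neither lay near that of all regions for mito members and below it for LM members. Of the 573 LM members, 49.9% (45.8 to 54.0) had a peak in both eG1-1 lists and 13.3% in neither. Of the 2273 mito members, 35.9% (34.0 to 37.9) had one in both and 24.1% in neither. Over all 41893 regions the shares were 47.7% (47.2 to 48.2) in both and 24.8% in neither. Regions held by all 4 lists had one in both in 89.8%, and regions held by 1 list alone in 18%. The 2 eG1-1 lists each gave the same order, 42.8% and 69.0% of mito members against 57.6% and 79.1% of LM members in replicates 1 and 2, with 52.8% and 70.1% of all regions. At equal list length the shares with a peak in both were 17.9% and 35.6%. The order turned when 1 LM list stood for its group: 48.1% of mito members against 26.8% of LM members without LM replicate 1, and 48.5% against 21.6% without LM replicate 2. Those comparisons ask for 1 list instead of 2 on the LM side, and what that change of standard adds was not tested.

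Genes gave the same order as regions. Of the 77 LM-side genes, 44.2% had a peak in both early G1 lists and 11.7% in neither. Of the 456 mito-side genes, 28.9% had one in both and 27% in neither. Over all 20665 genes 40.6% had one in both and 43.0% in neither. For a peak in both, the LM-side share lay near that of all genes and the mito-side share below it. For a peak in neither, both sides lay below all genes. Chaf1a had early G1 scores of 87 and 169 and Lin37 of 180 and 209. On the mito side, Ackr3 had 92 and 234, and Srebf1 42 and 150, while Mycn, Sall4, Rpl9, Rpl12 and Rpl35 had no peak in either eG1-1 list.

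**Figure D4:**
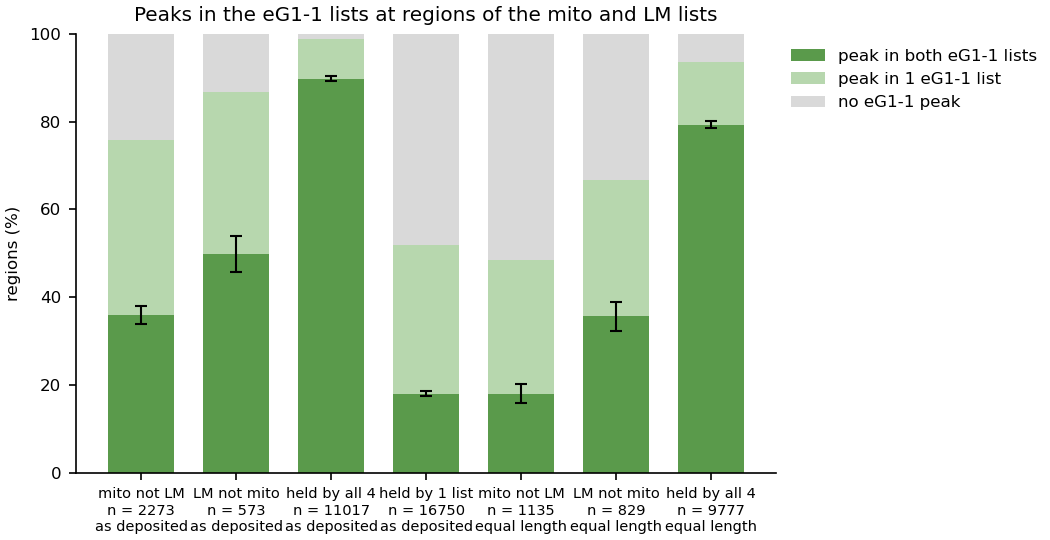
Stacked bars give the share of regions (%) with a peak in both eG1-1 lists (dark green), in 1 (light green) and in neither (grey), for mito members, LM members, regions held by all 4 lists and regions held by 1 list; error bars are Wilson 95% intervals on the dark part. The dark part is taller for LM members than for mito members as deposited, 49.9% against 35.9%, and at equal list length, 35.6% against 17.9%, and tallest for regions held by all 4 lists.

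Within the 11017 regions that all 4 lists held, scores of each list were turned into percentile ranks, so that the lists could be set side by side. Ranking centres every list at the same middle, so the counts in the 2 directions cannot show a shift of 1 group as a whole. Both mito ranks lay over both LM ranks in 1920 regions (17.4%), and both LM ranks over both mito ranks in 1929 (17.5%). Across regions, which are not independent replicates, Spearman's rho was 0.678 between the mito lists and 0.596 between the LM lists. Between groups it was 0.676 for the replicate 1 lists and 0.585 for the replicate 2 lists. The pairs that share neither group nor run had 0.661 (mito replicate 2 with LM replicate 1) and 0.565 (mito replicate 1 with LM replicate 2). The 3 pairs with LM replicate 2 had the lowest values, whatever they shared.

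The regions with the largest gaps in rank were the extremes of these 2 classes, named for their gaps and given as a description. At Mpzl3, a relative of myelin protein zero, the percentiles were 78.3 and 66.3 in mito and 3.85 and 5.33 in LM. At Ptprj, a receptor tyrosine phosphatase, and its neighbour Gm46752 they were 66.0 and 77.0 in mito and 7.20 and 5.33 in LM. Gulp1, an adaptor of engulfment, had 75.7 and 62.8 against 8.33 and 4.26. Appbp2, Plekha7 (an adherens junction protein) and Cyfip1 (a subunit of the WAVE complex) completed the named mito side, with gaps of 52.3, 49.6 and 45.3 percentile points between the lower mito rank and the higher LM rank. Higher in LM were Gm10509, at 96.8 and 96.7 in LM against 1.66 and 32.6 in mito, and Dhtkd1, a mitochondrial dehydrogenase of lysine breakdown, at 72.2 and 66.2 against 4.08 and 4.26. Preb, a protein of endoplasmic reticulum exit sites, had 69.7 and 66.2 against 14.2 and 15.3, and Mfn1, a protein of mitochondrial fusion, 73.7 and 68.1 against 12.8 and 20.3. The neighbours Hrc and Ppfia3, and Tmx4, had gaps of 55.9 and 49.9 points. Away from gene ends, the largest gaps were 54.3 and 51.6 points on the mito side, at regions nearest 1700001O22Rik and Kiz. On the LM side they were 60.2 and 59.7 points, at regions within Magi1 and Glo1.

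The median peak width at the shared regions was lower in both LM lists than in both mito lists, and lowest in LM replicate 2. Median widths over the 11017 regions were 650 and 747 bp in mito replicates 1 and 2 and 623 and 428 bp in LM replicates 1 and 2, so the groups did not overlap. Means were 698 ± 68.6 bp and 526 ± 138 bp (SD, n = 2 each), a difference of -173 bp with p = 0.333 by exact two-sided permutation, the smallest p this design allows. The difference was -27 bp within replicate 1 and -319 bp within replicate 2, and -73.0 bp without LM replicate 2. Both LM peaks were narrower than both mito peaks in 4067 regions (36.9%), and both mito peaks narrower than both LM peaks in 311 (2.82%). In replicate 1 the narrowing lay away from gene ends: the medians were 677 bp in mito and 686 bp in LM at gene boundaries, and 619 and 566 bp elsewhere. In replicate 2 they were 752 and 431 bp at boundaries and 744 and 427 bp elsewhere.

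**Figure D5:**
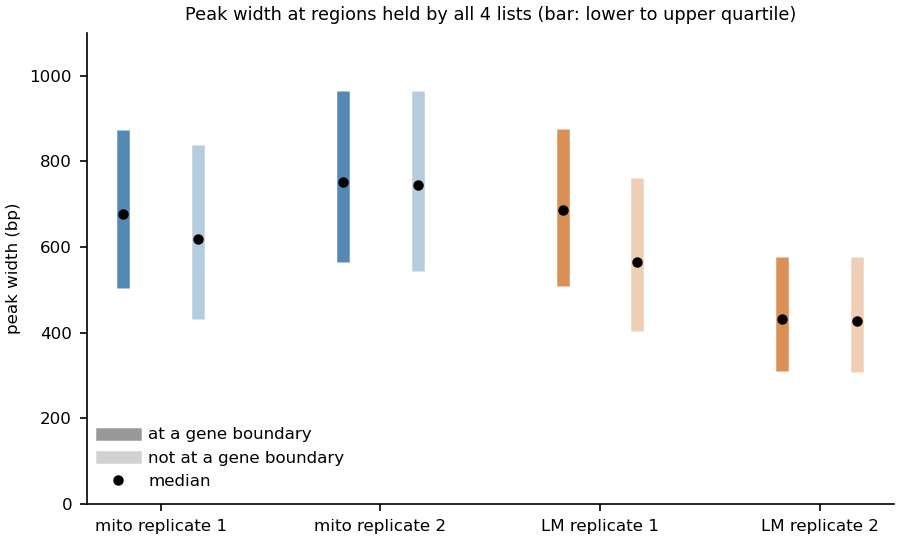
Bars span the lower to upper quartile and dots mark the median of peak width (bp) in each list over the 11017 regions held by all 4 lists, split into 5394 regions at a gene boundary (dark) and 5623 not at one (pale). LM replicate 2 is narrow in both, at 431 and 427 bp, while LM replicate 1 lies below mito replicate 1 only away from gene boundaries, 566 against 619 bp.

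Promoters of members were richer in G and C than promoters without a peak and somewhat poorer than those that all 4 lists held. Of 31396 promoter windows on chromosomes 1 to 19, 470 lay under mito-side peaks, with a median GC content of 60.7% and 20 CpG, and 73 under LM-side peaks, with 58.7% and 17 CpG. The 5774 windows under peaks of all 4 lists had 61.3% and 22 CpG, and the 19627 under none had 48.3% and 4 CpG. CCAAT stood in 28.5% (24.6 to 32.8) of the mito windows and 34.2% (24.4 to 45.7) of the LM windows, against 50.1% (48.8 to 51.4) under peaks of all 4 lists and 37.3% of all promoters. The 1820 windows with a peak in all lists but LM replicate 2 had 32.5%. GGGCGG stood in 56.0% of mito and 68.5% of LM windows, against 70.1% under all 4 lists and 36.0% of all promoters. CCGGAAG stood in 17.7% and 11% of them, against 22.4% and 9% in the same order. The mito and LM intervals overlapped for each of these 3 motifs.

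The members were spread over all 19 chromosomes. The mito-side share of a chromosome's regions ran from 4.17% on chromosome 8 to 6.36% on chromosome 15. The LM-side share ran from 0.986% on chromosome 3 to 2.51% on chromosome 14.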

How the data were processed

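ATAC-seq peak lists of 4 samples, mito and LM with 2 replicates each, were compared, and 2 eG1-1 lists were used as a readout. Groups came from the sample titles. Each deposited list gives chromosome, start, end, name and a score, a whole number per peak that the authors made; its scaling is not given in the sources used here. Peaks were called per sample, as the peak names in the files show. Per the submitters' processing notes, MACS2 2.2.4, bedtools, deepTools 3.5.1, SAMtools 1.10, Picard and STAR 2.7.0e were used with mm10 and GRCm38; their roles, the Tn5 offset and the peak threshold are not given. Depth is unknown, and no precision can be drawn from it.

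Peaks were merged by 1 bp or more with Python 3.11.15 and NumPy 2.4.6. A more deeply read sample can give more peaks, so lists were also reduced to 20639 peaks by score; ties at the lowest score kept were broken by position. Genes and promoters came from RefSeq tables on GRCm38.p6. The gene table gives both annotated ends without strand, so a boundary includes 3′ ends; the alternative with start sites only used the RefSeq promoter table, which covers 16457 of 20665 genes. Values per list were tested by exact two-sided permutation over 6 assignments. The merging and class steps were checked on simulated peaks at sites set far apart, and 20000 of 20000 simulated regions were recovered. Those peaks always overlapped within a site and never between sites, so the check does not cover crowded or split peaks.

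Genes were named by rule: the 10 per direction, held under both settings, with the highest lower score; up to 4 per direction from each gene list; and the largest rank gaps in shared regions, 6 at gene boundaries and 2 elsewhere, besides the 4 strongest distal regions. Further named list members were chosen after their values were seen. The members, the 22 gene lists (287 of 297 symbols found, besides families matched by name) and the tests were chosen with earlier results of these data known. Same-numbered lists share a sequencing run, per the peak names, which is why they are paired; their deviations correlated at 0.0427 over 41893 regions. Alternatives were equal length, a score of at least 50, coverage of 50% of a region, windows of 500 bp and 2 kb, start sites only, each list left out, and a replicate block. Chromosomes X, Y and M lie outside the comparison.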

Additional observations from a re-analysis of the deposited data

Results flagged for a closer look

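Chromosome X lies outside the comparison, which covers chromosomes 1 to 19, and still held peaks that parted the groups. Of its 843 regions, 52 (6.17%) had a peak in both mito lists but in no LM list, and 3 (0.356%) the reverse, while 181 were held by all 4 lists. On chromosomes 1 to 19 the shares were 5.43% and 1.37%.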

How the results depend on the processing

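The counts are counts of called peaks and depend on how many peaks each list holds. With regions at least 50% covered by a list's peaks, 3468 regions were mito-side, and at equal list length 1135. A score of at least 50 gave 219 LM-side regions and 49 genes, beside 1756 and 640 on the mito side, so there the surplus widened. Equal length gave 160 LM-side genes. The gene-boundary share of mito members was 27.6% at equal length, 31.4% with a score of at least 50, 15.1% with a 500 bp window and 29.3% with 2 kb; that of LM members was 19.8%, 24.2%, 10.6% and 18.7%. Early G1 peaks in both lists stood at 17.9% of mito and 35.6% of LM members at equal length, and at 32.7% and 63.0% with a score of at least 50. The difference in gene-boundary share per list turned to -2.94 points at equal length and to -1.66 and -2.42 points without mito replicate 2 and without LM replicate 1.

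Leaving out 1 list at a time, which asks for 1 list in place of 2 in that group, gave 3749 to 8850 mito regions, 956 to 4083 LM regions, 721 to 2387 mito genes and 192 to 476 LM genes. The gene-boundary shares then ran from 17.9% to 36.5% for mito and from 9.84% to 20.3% for LM members, and early G1 peaks from 22.0% to 48.5% and from 21.6% to 64.0%. Per list, the differences ran from -2702 to -234 genes, from -2.42 to 3.22 points of boundary share and from -260 to -73.0 bp of width. The causes were not tested.

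With the replicate block, the mean of the counts within each replicate number was 10866.5 regions on the mito side and 5882 on the LM side, and 2274.5 and 806 genes. At equal length, an alternative added after seeing the data, the block gave 6425 and 6401 regions and 1731.5 and 1037.5 genes. Within-number counts ask for 1 list on each side and are larger for that reason. The block left the 3 differences per list at -1468 genes, 0.400 points and -173 bp, with exact permutation p of 1.00, 1.00 and 0.500, the last the smallest it can give.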

Other observations

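Genes that make no protein also carried members. Of 12408 lncRNA genes, 167 (1.35%) were mito-side, 37 (0.298%) LM-side, and 1211 were held by all 4 lists, beside 2.21% mito-side and 0.373% LM-side of protein-coding genes. Of 1136 miRNA genes the counts were 13 (1.14%), 4 (0.352%) and 62, and of 391 tRNA genes 7 (1.79%), 1 (0.256%) and 136. The mito-side shares lay below that of protein-coding genes, while the LM-side shares of miRNA and tRNA genes rest on 4 and 1 genes, too few to be read as lower. How far the shortness of many of these genes lowers their shares was not tested. Small nucleolar RNA genes gave 4, 0 and 29 of 1286, and small nuclear RNA genes 0, 0 and 50 of 931.

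The miRNA genes named here were chosen after their values were seen. The cluster of Mir302 and Mir367, which is typical of pluripotent cells, had peaks in all 4 lists, with scores of 246, 252, 248 and 72 in mito replicates 1 and 2 and LM replicates 1 and 2. Mir17 had 57, 70 and 60 and no peak in LM replicate 2. Mir142 was held in mito alone, at 70 and 42. In LM alone were Mir9-1, a miRNA of neural cells, at 21 and 55, and Mir1247, at 45 and 58.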
